A study of Mus musculus with 16 samples.

Results

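Iron storage and transport genes were followed in the spinal cord of mice that carry a human profilin 1 transgene. The 10 genes were chosen by symbol, and all 10 were present among the 18167 genes measured. They were *Fth1* and *Ftl1*, which encode the heavy and light chains of ferritin; *Tfrc* and *Trf*, the transferrin receptor and transferrin; *Slc40a1*, the iron exporter ferroportin; *Cp* and *Heph*, the ferroxidases ceruloplasmin and hephaestin; *Slc11a1* and *Slc11a2*, metal transporters of the NRAMP family; and *Steap3*, a ferrireductase of endosomes.

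RNA of 16 cords was sequenced from poly(A) libraries, 1 library per mouse. The mutant young (MY, n = 3) and mutant old (MO, n = 5) mice carried profilin 1 with the G118V mutation, in the C57BL/6N line 838Kiaei. The wild-type young (WY, n = 3) and wild-type old (WO, n = 5) mice carried human profilin 1 without the mutation, in the C57BL/6N line 850Kiaei. The control mice are therefore transgenic too, no mouse without a transgene was compared, and each genotype is 1 transgenic line, so the mutation and other differences between the lines cannot be told apart. In both lines the mouse *Prnp* promoter drives the transgene. MY and WY mice were 50 days old and presymptomatic. MO mice were at the end stage of disease, at 198, 190, 245, 224 and 175 days for MO1 to MO5. WO mice, labelled with the same stage, were 190 days old (WO1 to WO3) or 294 days old (WO4 and WO5). All MY and WY libraries were of batch 1, and MO4, MO5, WO4 and WO5 were of batch 2. The deposited values had been corrected for batch by the authors. The depth behind any single gene is unknown, so errors below are those between mice.

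All mice were described as male, but MO5 went against that label. *Xist*, which is transcribed from the inactive X chromosome of females, was at a log2(1 + FPKM) of 3.21 in MO5 and at most 0.37 in the other 15 mice. The Y-linked *Ddx3y* was at 1.95 in MO5 and between 4.06 and 4.74 elsewhere, and *Eif2s3y*, *Kdm5d* and *Uty* were also lower in MO5 (1.82, 1.07 and 1.05) than in any other mouse. In these values MO5 thus showed both kinds of transcript, but they had been corrected for batch. The other batch 2 mice, WO4, WO5 and MO4, were at -0.353, -0.342 and -0.357 for *Xist*, below every batch 1 mouse. For *Ddx3y* they were at 4.744, 4.667 and 4.705, above every batch 1 mouse. Whether the Y-linked signal of MO5 came from its RNA or from the correction was not tested. The fold changes of the 10 genes, the ratio differences and the counts of iron genes called are given with MO5 and without it. Group levels, medians, counts by FDR alone or without overlap, fold changes of other genes and marker lists include MO5. The tissue label was checked as well. Neuronal *Snap25* averaged 1590 ± 70.2 FPKM (SD, n = 5) in WO and oligodendrocyte *Mbp* 7310 ± 7040 FPKM. In WO4 *Mbp* was at 39.9 FPKM, against 4570 to 19100 FPKM in the other 15 mice, so that library stands apart for this gene. The summed markers of skeletal muscle stayed between 1.55 and 3.75 FPKM and those of Schwann cells between 1.29 and 2.5 FPKM in the 16 mice.

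Cells take up iron mainly as transferrin-bound iron through the transferrin receptor. It is reduced in the endosome, moved to the cytosol, used or stored inside ferritin shells of mixed heavy and light chains, and exported by ferroportin with the help of a ferroxidase. Iron regulatory proteins bind hairpins called iron responsive elements. When iron is scarce they block translation of ferritin mRNA and stabilize transferrin receptor mRNA. In the central nervous system oligodendrocytes are known to make transferrin and to hold much iron, microglia are known to store iron in ferritin, and astrocytes carry a membrane-anchored form of ceruloplasmin.

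The 10 genes differed widely in their level in the cord. FPKM is scaled by transcript length, so levels can be set side by side. In WO, *Fth1* averaged 7920 ± 714 FPKM (SD, n = 5), *Trf* 764 ± 59.8, *Ftl1* 270 ± 26.1, *Tfrc* 36.1 ± 3.82 and *Slc11a2* 14.7 ± 0.509. Below these came *Heph* (5.26 ± 0.223), *Cp* (4.5 ± 0.875), *Slc40a1* (4.01 ± 0.293), *Steap3* (1.71 ± 0.143) and *Slc11a1* (1.36 ± 0.43). Single WO mice overlapped between *Heph* and *Cp*, between *Cp* and *Slc40a1*, and between *Steap3* and *Slc11a1*, so these neighbours in the order did not differ beyond their spread, whereas the ranges of the first 5 genes did not overlap in WO. Ranked by the mean log2(1 + FPKM) over the 16 mice, *Fth1* was number 1 of the 18167 genes, *Trf* 34 and *Ftl1* 179. The lowest of the 10 by this pooled mean, *Steap3*, was number 12392, whereas *Slc11a1* was the lowest in WY, MY and WO. *Fth1* was the highest of all genes in 8 mice, and 1 gene exceeded it in the other 8, which include all MY mice.

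The order was the same for the first 5 genes in all 4 groups, but *Slc11a1* stood number 6 in MO and number 10 in the other groups. There it averaged 8.95 ± 2.18 FPKM (SD, n = 5), ahead of *Cp* (7.16 ± 1.32), *Heph* (5.42 ± 1.29), *Slc40a1* (3.52 ± 0.649) and *Steap3* (2.23 ± 0.505). The ranges of *Slc11a1* and *Cp*, of *Cp* and *Heph*, and of *Heph* and *Slc40a1* overlapped in MO. *Ftl1* in MO (646 ± 122 FPKM) overlapped with *Trf* (840 ± 191 FPKM), which it did not do in any other group.

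**Figure D1:**
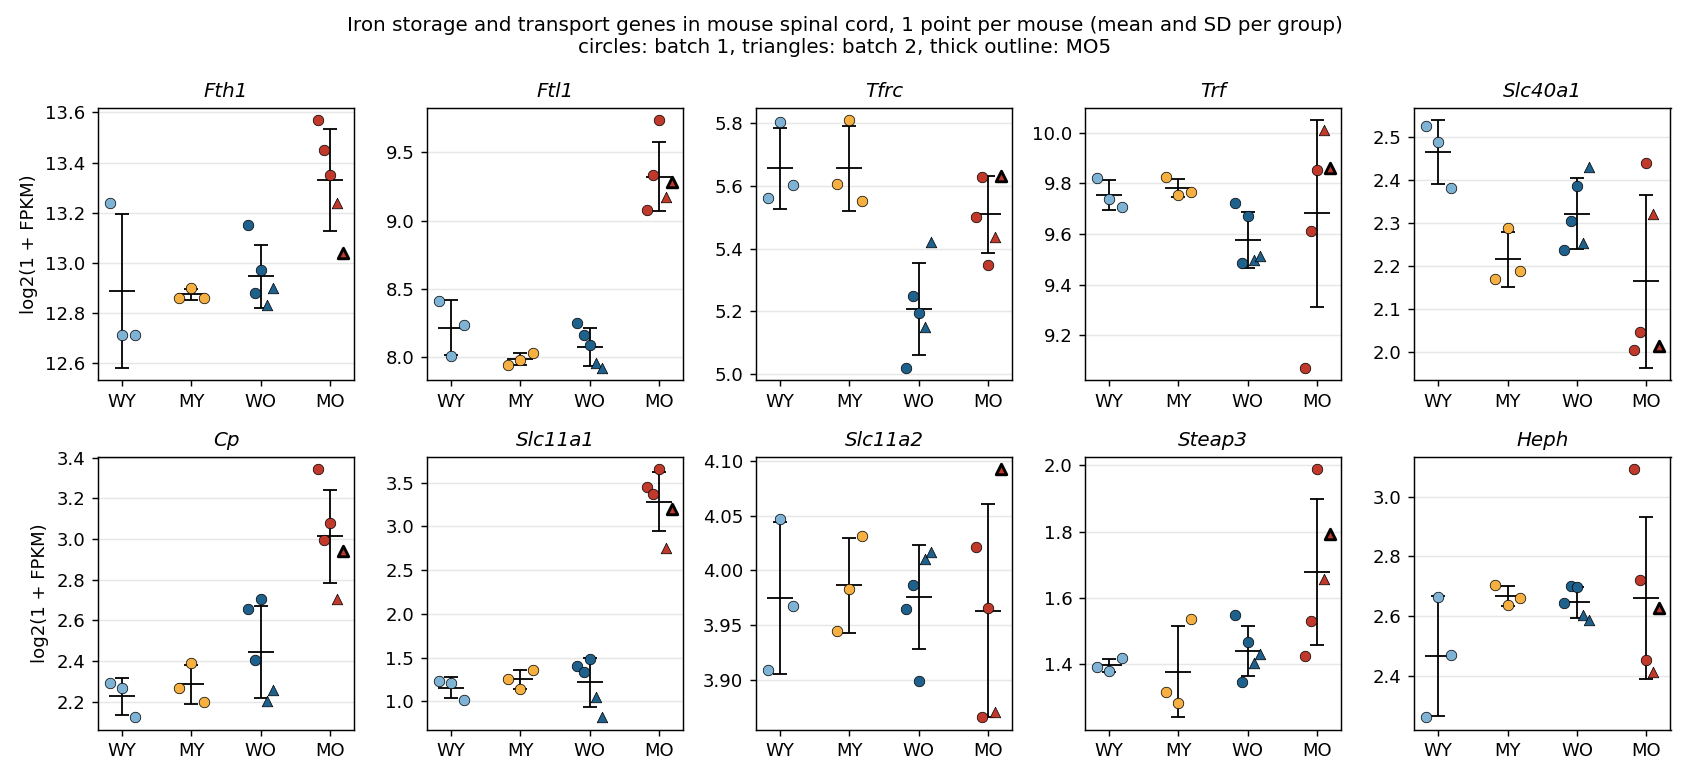
Log2(1 + FPKM) of each of the 10 genes in every mouse, by group. Bars are the mean and SD (n = 3 for WY and MY, n = 5 for WO and MO), circles are batch 1, triangles are batch 2, the thick outline marks MO5, and each panel has its own scale. All 5 MO mice lie above every other mouse for *Ftl1*, *Cp* and *Slc11a1*.

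The comparisons MY vs. MO and WO vs. MO ask what differs at the end stage, against younger mutant mice and against old mice with the wild-type transgene. They share the 5 MO mice. A gene was counted as differentially expressed at an FDR of at most 0.05 over all genes with a fold change of at least 1.5 (limma). Fold changes are on the log2(1 + FPKM) scale, which understates the change of weakly expressed genes. In MY vs. MO 3 of the 10 genes were up-regulated, *Ftl1*, *Cp* and *Slc11a1*, and 0 were down-regulated, where 4.11% and 0.787% of all genes were. By FDR alone 4 were higher in MO and 0 lower, where 13.1% and 12.5% of all genes were. The mice of the groups did not overlap for 4 of the 10 genes, against 31.6% of all genes. The median log2 fold change was 0.15 for the 10 genes and 0.0047 for all genes.

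In WO vs. MO 2 of the 10 genes were up-regulated, *Ftl1* and *Slc11a1*, and 0 down-regulated, where 4.08% and 0.517% of all genes were. By FDR alone 5 were higher in MO and 0 lower, beside 15.0% and 12.9% of all genes. The groups did not overlap for 3 genes, *Ftl1*, *Cp* and *Slc11a1*, against 19.9% of all genes. The median log2 fold change was 0.27 for the 10 genes and 0.00035 for all genes. Without MO5 the same 3 genes as in the full MY vs. MO comparison were called in MY vs. MO, and *Cp* joined *Ftl1* and *Slc11a1* in WO vs. MO. The tissue was whole cord, in which fewer cells of a type and less RNA per cell cannot be told apart.

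**Figure D2:**
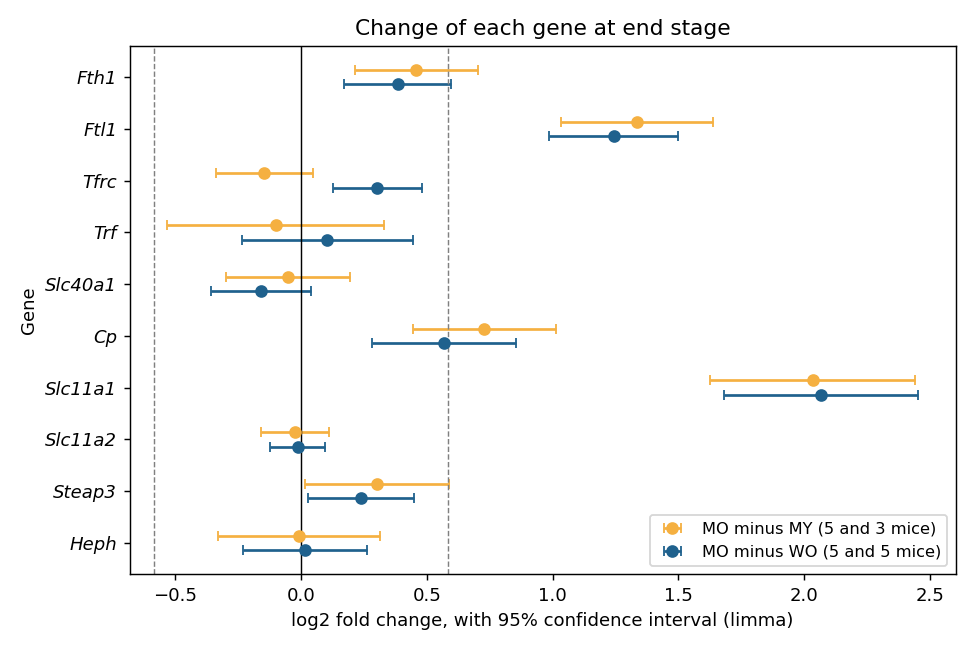
Log2 fold change of each gene in MY vs. MO and WO vs. MO, with the 95% confidence interval from limma. Dashed lines mark the fold change threshold of 1.5 (0.585 on the log2 scale). *Ftl1* and *Slc11a1* lie beyond it in both comparisons with their whole interval, and *Cp* lies at 0.73 and 0.57.

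Among the storage genes, the ferritin light chain rose most. *Ftl1* was at a log2(1 + FPKM) of 8.41, 8.01 and 8.23 in WY1 to WY3, and at 7.95, 7.98 and 8.03 in MY1 to MY3. It was at 8.25, 8.16, 8.09, 7.95 and 7.92 in WO1 to WO5, and at 9.08, 9.33, 9.74, 9.17 and 9.28 in MO1 to MO5. The lowest MO mouse was thus above the highest of the other 11 mice, which were spread over less than 1 log2 unit. The log2 fold change was 1.33 in MY vs. MO (SE 0.13, FDR 0.0004), a fold change of 2.52, and 1.24 in WO vs. MO (SE 0.12, FDR 4.02e-05), a fold change of 2.37. Within batches the difference of MO and WO means was 1.22 in batch 1 (3 mice each) and 1.29 in batch 2 (2 mice each). MY vs. MO gave 1.40 with the batch 1 mice, and batch 2 held no MY mouse. Without MO5 the values were 1.34 and 1.25.

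The ferritin heavy chain, which carries the ferroxidase activity of the shell, moved less. *Fth1* was at a log2(1 + FPKM) of 13.24, 12.71 and 12.71 in WY1 to WY3, and at 12.86, 12.90 and 12.86 in MY1 to MY3. It was at 13.15, 12.88, 12.97, 12.83 and 12.90 in WO1 to WO5, and at 13.57, 13.45, 13.35, 13.24 and 13.04 in MO1 to MO5. MO did not overlap with MY, but MO5 lay below WO1. The log2 fold change passed the FDR but not the fold change threshold in both comparisons, at 0.46 in MY vs. MO (SE 0.11, FDR 0.0152) and 0.38 in WO vs. MO (SE 0.097, FDR 0.0133). Without MO5 it was 0.53 and 0.46. In WO vs. MO it was 0.46 in batch 1 and 0.27 in batch 2, and in MY vs. MO 0.58 with the batch 1 mice. After quantile normalization it was 0.34 in MY vs. MO (FDR 0.147) and -0.11 in WO vs. MO (FDR 0.641). Quantile normalization gives genes of the same rank the same value in every mouse, and *Fth1* ranked first or next to first in each, so under that setting its value depends only on which of these ranks it held.

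The log2 ratio of *Fth1* to *Ftl1* FPKM was compared within mice, since both chains build the same shell. It was 4.83, 4.71 and 4.49 in WY1 to WY3, and 4.92, 4.92 and 4.83 in MY1 to MY3. It was 4.91, 4.72, 4.88, 4.88 and 4.99 in WO1 to WO5, and 4.50, 4.12, 3.61, 4.07 and 3.76 in MO1 to MO5. As geometric means this is 29.4 *Fth1* FPKM for each *Ftl1* FPKM in WO, 29.7 in MY and 16.1 in MO. Each MO mouse had a lower ratio than each MY and WO mouse, and MO1 overlapped with WY3. The log2 ratio was lower in MO than in WO by a difference of -0.86 (exact permutation test, two-sided, p = 0.00794, the smallest that 5 against 5 mice allow), with an adjusted p of 0.0635 over the 8 tests of 2 ratios. In MY vs. MO the difference was -0.88 (exact p = 0.0357, the smallest for 3 against 5, adjusted p = 0.0952). Neither passed after adjustment. Without MO5 the differences were -0.80 (exact p = 0.0159) and -0.82 (exact p = 0.0571). In WY vs. WO and WY vs. MY the groups overlapped, with differences of 0.20 (exact p = 0.0714) and 0.22 (exact p = 0.2, where 3 against 3 mice cannot go below 0.1). Reads of both ferritin genes could be shared with copies elsewhere in the genome, whose likeness was not measured here. The annotation lists 5 ferritin genes named as pseudogenes, *Fth-ps2*, *Fth-ps3*, *Ftl1-ps1*, *Ftl1-ps2* and *Ftl2-ps*, of which 0 were measured as genes of their own, so the levels of both chains are uncertain to that extent.

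*Slc11a1*, the transporter of phagosomes that moves divalent metals out of the vesicle, had the largest change of the 10 genes. It was at a log2(1 + FPKM) of 1.24, 1.21 and 1.02 in WY1 to WY3, and at 1.26, 1.14 and 1.36 in MY1 to MY3. It was at 1.40, 1.34, 1.48, 1.04 and 0.82 in WO1 to WO5, and at 3.45, 3.37, 3.65, 2.75 and 3.19 in MO1 to MO5. All MO mice were more than 1 log2 unit above the highest other mouse, WO3. The log2 fold change was 2.03 in MY vs. MO (SE 0.18, FDR 0.000302) and 2.07 in WO vs. MO (SE 0.17, FDR 2.48e-05), fold changes of 4.09 and 4.19. It was 2.09 in batch 1 and 2.04 in batch 2 for WO vs. MO, and 2.24 in MY vs. MO with the batch 1 mice. Without MO5 it was 2.06 and 2.09.

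*Slc11a2*, which brings ferrous iron across the plasma membrane and out of endosomes, stayed between 3.87 and 4.09 in the 16 mice. Its log2 fold change was -0.02 in MY vs. MO (95% interval -0.16 to 0.11, FDR 0.828) and -0.01 in WO vs. MO (-0.12 to 0.097, FDR 0.894), and -0.06 and -0.04 without MO5. The intervals of the NRAMP genes were far apart, although the difference between them was not tested.

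Of the ferroxidases, *Cp* rose in MO and *Heph* did not pass in either comparison. *Cp* was at 2.29, 2.27 and 2.12 in WY1 to WY3, and at 2.27, 2.39 and 2.20 in MY1 to MY3. It was at 2.65, 2.40, 2.70, 2.20 and 2.25 in WO1 to WO5, and at 3.34, 3.00, 3.08, 2.71 and 2.94 in MO1 to MO5. The lowest MO mouse, MO4 (2.707), was only just above the highest WO mouse, WO3 (2.704). The log2 fold change was 0.73 in MY vs. MO (SE 0.12, FDR 0.00405). In WO vs. MO it was 0.57 (SE 0.13, FDR 0.0079), which passed the FDR and fell short of the fold change threshold of 0.585 on the log2 scale. Without MO5 it was 0.75 and 0.59, the second now called (FDR 0.015), and it was also called without MO4 (0.65), WO1 (0.62) or WO3 (0.63), and with a pseudocount of 0.1 (0.66). The call in MY vs. MO was lost when the fold change was tested against 1.2 (limma treat, FDR 0.0588). Within batches WO vs. MO gave 0.55 and 0.60, and MY vs. MO gave 0.85 with the batch 1 mice. *Cp* overlaps *Hps3* on the other strand, as *Heph* overlaps *Hsf3* and *Slc11a2* overlaps *Gm5475*. The library kit kept the strand, but whether counting used it is not given in the sources used here. *Heph* was between 2.26 and 3.09, with log2 fold changes of -0.0067 and 0.015 and FDRs of 0.98 and 0.945 (without MO5 0.0019 and 0.02).

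The uptake genes had smaller differences. *Tfrc* was at 5.56, 5.80 and 5.60 in WY1 to WY3, and at 5.61, 5.81 and 5.55 in MY1 to MY3. It was at 5.02, 5.25, 5.20, 5.15 and 5.42 in WO1 to WO5, and at 5.50, 5.63, 5.35, 5.44 and 5.63 in MO1 to MO5. The WO mice were the lowest group, all below every WY mouse, and MO3 overlapped with WO5. The log2 fold change in WO vs. MO was 0.30 (SE 0.079, FDR 0.0159; without MO5 0.27, FDR 0.0384), which passed the FDR and not the fold change threshold. In MY vs. MO it was -0.15 (SE 0.085, FDR 0.257; without MO5 -0.18). Batch 1 gave 0.34 and batch 2 gave 0.25 for WO vs. MO.

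*Trf* was between 9.48 and 9.82 in the 11 mice outside MO. In MO it was more spread, at 9.07, 9.61, 9.85, 10.01 and 9.86 in MO1 to MO5, so that 3 MO mice were above and 1 was below all others. Its log2 fold change was -0.10 in MY vs. MO (SE 0.19, FDR 0.758) and 0.10 in WO vs. MO (SE 0.15, FDR 0.682), and -0.14 and 0.06 without MO5. The difference of MO and WO means was -0.11 in batch 1 and 0.43 in batch 2, so the direction differed between batches. *Steap3* was at 1.43, 1.53, 1.99, 1.66 and 1.79 in MO1 to MO5 and between 1.28 and 1.55 in the other mice. Its log2 fold changes of 0.30 (SE 0.13, FDR 0.119) and 0.24 (SE 0.095, FDR 0.0869) did not pass, nor did the 0.27 and 0.21 without MO5.

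*Slc40a1*, the exporter, was at 2.53, 2.49 and 2.38 in WY1 to WY3, and at 2.17, 2.29 and 2.19 in MY1 to MY3. It was between 2.24 and 2.43 in WO, and at 2.00, 2.05, 2.44, 2.32 and 2.01 in MO1 to MO5. MO1, MO2 and MO5 were below every mouse of the other groups, while MO3 and MO4 lay among them. The log2 fold change was -0.05 in MY vs. MO (SE 0.11, FDR 0.786) and -0.16 in WO vs. MO (SE 0.089, FDR 0.226), and -0.01 and -0.12 without MO5.

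Iron uptake was also set against storage within mice, as the log2 ratio of *Tfrc* to *Fth1* FPKM. It was -7.71, -6.93 and -7.14 in WY1 to WY3, and -7.29, -7.11 and -7.33 in MY1 to MY3. It was -8.18, -7.67, -7.81, -7.72 and -7.51 in WO1 to WO5, and -8.11, -7.84, -8.04, -7.84 and -7.44 in MO1 to MO5. WO and MO overlapped, each MO mouse was below each MY mouse, and WY1 lay among the old mice. The difference of MO and WO was -0.07 (exact p = 0.651; without MO5 -0.18, exact p = 0.238). In MY vs. MO it was -0.61 (exact p = 0.0357, adjusted p = 0.0952; without MO5 -0.71, exact p = 0.0571). In WY vs. WO it was -0.52 (exact p = 0.107), and in WY vs. MY 0.015 (exact p = 0.9).

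The remaining comparisons ask what changes with age in mice with the wild-type transgene and what differs before symptoms. In WY vs. WO 0 of the 10 genes were called, where 0.253% of all genes were, and 0 passed the FDR alone, where 1.12% did (limma). At an unadjusted p under 0.05 there were 3, beside 2447 of all 18167 genes, namely *Tfrc* (log2 fold change -0.45, SE 0.093, FDR 0.0688), *Trf* (-0.18, FDR 0.289) and *Slc40a1* (-0.14, FDR 0.337). *Tfrc* was the 1 gene whose groups did not overlap, against 9.67% of all genes. In WY vs. MY 0 of the 10 genes were called and 0 passed the FDR, where 0.00550% of all genes did by either rule, which is 1 gene. At an unadjusted p under 0.05 there was 1, beside 1301 of all 18167 genes, namely *Slc40a1* (log2 fold change -0.25, SE 0.058, FDR 0.534). It was also the 1 gene whose groups did not overlap, against 13.7% of all genes. *Ftl1* was at -0.23 in WY vs. MY (95% interval -0.47 to 0.012, FDR 0.695) and *Slc11a1* at 0.096 (-0.10 to 0.29, FDR 0.762).

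Whether the change with age differed between genotypes was tested as (MO - MY) - (WO - WY) on all 16 mice. It was larger in mutant mice for 2 of the 10 genes, *Ftl1* (1.48, SE 0.18, FDR 9.27e-05) and *Slc11a1* (1.97, SE 0.25, FDR 0.000125), where 4.65% of all genes were larger by the same rule. Without MO5 the values were 1.49 and 1.99. For *Cp* the difference was 0.51 (SE 0.19, FDR 0.0735), and it was called without MO4 (0.59, FDR 0.03) but not without MO5 (0.53, FDR 0.0822). *Fth1* and *Tfrc* were at 0.40 (FDR 0.139) and 0.30 (FDR 0.128), and without MO5 at 0.47 and 0.27.

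Markers of several cell types moved with these results. Of 9 microglial markers 8 were up-regulated in MY vs. MO and 7 in WO vs. MO, and their summed FPKM was 640, 808, 978, 571 and 620 in MO1 to MO5 and between 158 and 225 in the other mice. *P2ry12*, a marker of resting microglia, had log2 fold changes of -0.02 (FDR 0.934) and 0.098 (FDR 0.623). The level of 0 of the 9 markers was at or below 0 in all mice. Of 8 astrocyte markers 2 and 3 were up-regulated. Their summed FPKM was 4080 to 4990 in MO and 2520 to 3260 elsewhere, and *Gfap*, the most abundant, went from 724 ± 66.6 FPKM in WO to 2220 ± 346 FPKM in MO, where the mean sum went from 2640 to 4350 FPKM. *S100b*, of the same list, was at -0.28 in MY vs. MO (FDR 0.1) and -0.21 in WO vs. MO (FDR 0.102). The part of these cell types in the rise of *Ftl1*, *Slc11a1* and *Cp* was not tested.

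Of 8 oligodendrocyte markers 3 were down-regulated in MY vs. MO and 1 in WO vs. MO. By FDR alone 4 were lower and 0 higher in MY vs. MO, and 2 lower and 1 higher in WO vs. MO. Their summed FPKM was 7220, 7730, 7850, 22300 and 21700 in MO1 to MO5 and 10300, 9550, 9590, 5360 and 24000 in WO1 to WO5, with 14200 to 16700 in the young mice. Of the batch 2 mice, MO4, MO5 and WO5 were thus the highest of all and WO4, in which *Mbp* was at 39.9 FPKM, was the lowest. *Trf* was also highest in MO4 and MO5 (10.01 and 9.86) but not in WO5 (9.51). Of 5 motor neuron markers 4 were lower in MO by FDR in each comparison, and 1 was down-regulated in WO vs. MO. Their most abundant gene in WO, *Slc18a3*, was at 28.4 ± 3.02 FPKM there and at 19.7 ± 2.02 in MO, and the markers summed to 42.5 to 53.7 FPKM in MO and 43.9 to 81.5 elsewhere. Of 6 neuronal markers 3 were lower by FDR in each comparison and 0 passed the fold change threshold, with sums of 1570 to 1780 FPKM in MO and 1820 to 2200 elsewhere. Of 4 oligodendrocyte precursor markers, with *Olig2* the most abundant, 1 was down-regulated in MY vs. MO and 0 in WO vs. MO. In WY vs. WO 3 oligodendrocyte markers, 1 astrocyte marker and 1 precursor marker were down-regulated, and in WY vs. MY 0 markers of any list were called.

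Markers of border macrophages summed to 1.26 to 1.9 FPKM in MO and 0.733 to 1.16 elsewhere, with *F13a1* the most abundant at 0.421 ± 0.126 FPKM in MO, and 2 of 4 were higher by FDR in each comparison. Those of blood monocytes and neutrophils summed to 1.04 to 8.03 FPKM in MO and 1.43 to 33.7 in the other mice, with *S100a8* the most abundant. Here too 2 of 5 stayed below 0.5 in all mice, and 0 of the 5 passed the FDR. Red blood cell markers, led by *Hba-a1*, summed to 14.8 FPKM in MO1, 55.2 to 86.2 in the other MO mice and 69.5 to 129 elsewhere. Of these 5 markers 2 stayed below a log2(1 + FPKM) of 0.5 in all mice, and 0 of the others passed the FDR. For endothelial cells, led by *Ly6c1*, 4 of 6 markers were lower by FDR in WO vs. MO and 0 in MY vs. MO. Ependymal and choroid plexus (*Foxj1*), meningeal fibroblast (*Dcn*), Schwann cell (*Ncmap*) and skeletal muscle (*Mylpf*) markers had 0 calls in these comparisons. By FDR 1 of 4 Schwann cell markers was lower in MY vs. MO and 1 of 4 muscle markers in WO vs. MO. WO3 stood apart for the sum of the ependymal and choroid plexus markers, at 43.9 FPKM there and 17.6 to 25.0 in the other mice. Of these markers only *Ttr* stood apart, at a log2(1 + FPKM) of 4.42 in WO3 and at most 0.675 in the other mice. *Foxj1* was at 3.80 in WO3 and up to 3.91 elsewhere. WO3 was also the WO mouse with the highest *Cp* (2.704).

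The other genes of iron and haem metabolism give the setting of the 10. A list of 79 genes in 7 groups held 75 genes of the table. In MY vs. MO 4 of the 75 were up-regulated and 0 down-regulated, with 15 higher and 8 lower by FDR alone and a median log2 fold change of 0.049. In WO vs. MO 5 were up-regulated and 0 down-regulated, with 13 higher and 7 lower by FDR and a median of 0.015. The shares of all genes by these rules are given above. In WY vs. WO and WY vs. MY 0 of the 75 passed the FDR, with 13 and 6 at an unadjusted p under 0.05, beside the 2447 and 1301 of all genes. In the interaction 7 were called larger and 0 smaller in mutant mice, beside 845 and 175 of all genes.

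**Figure D3:**
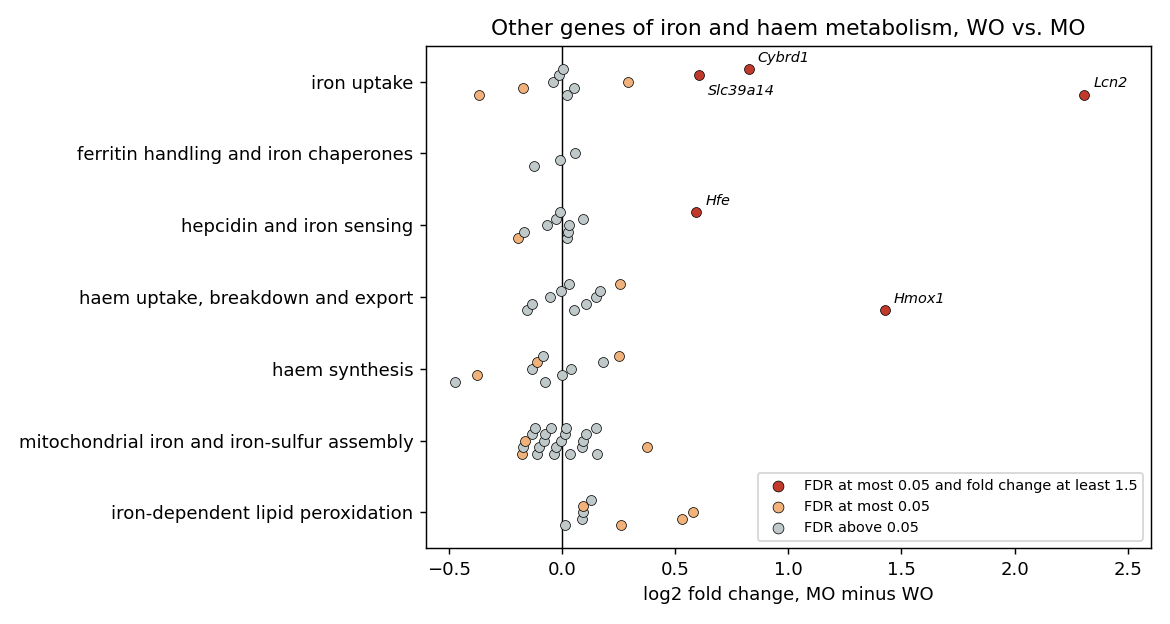
Log2 fold change in WO vs. MO of 75 other genes of iron and haem metabolism, 1 point per gene, in 7 groups. Genes past both thresholds are named. *Lcn2* lies farthest to the right at 2.31, followed by *Hmox1* at 1.43, and 0 genes lie past both thresholds on the left.

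The iron uptake group held 3 of the 5 genes called in WO vs. MO. *Lcn2*, a secreted protein that binds siderophores, was at a log2(1 + FPKM) of 5.17, 4.18, 3.68, 2.61 and 3.79 in MO1 to MO5 and between 1.33 and 2.28 in the other mice. Its log2 fold change was 2.18 in MY vs. MO (SE 0.48, FDR 0.0117) and 2.31 in WO vs. MO (SE 0.40, FDR 0.00158). The first was not called without MY1 (FDR 0.0529) or MY3 (FDR 0.051), or by treat (FDR 0.0505). *Cybrd1*, a ferric reductase, was at 1.39 to 1.75 in MO and 0.66 to 1.15 elsewhere, with log2 fold changes of 0.64 (FDR 0.00122) and 0.83 (FDR 6.49e-05), the first at 0.51 and not called after quantile normalization. Over the alternatives *Cybrd1* ranged from 0.51 to 1.014 in MY vs. MO and from 0.73 to 1.37 in WO vs. MO. In the interaction it ranged from 0.81 to 1.54. *Slc39a14*, a transporter of iron not bound to transferrin, rose by 0.60 in WO vs. MO (FDR 8.6e-05), just past the threshold, and was at 0.56 in MY vs. MO (FDR 0.00144), where it was called with batch 1 only or the replicate block (both 0.63), a pseudocount of 0.1 (0.605), treat (FDR 0.0478), or without MO4 (0.62) or MY3 (0.59). Its call in WO vs. MO was lost without MO3 (0.58) or WO5 (0.58). The most abundant gene of the group, *Slc22a17*, a receptor of *Lcn2* protein, was at 256 ± 11.9 FPKM in WO and at log2 fold changes of -0.095 (FDR 0.34) and -0.17 (FDR 0.0492). *Steap2*, a metalloreductase, was lower by FDR in both (-0.40 and -0.36, FDR 0.00294 and 0.000797).

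Of the genes of haem uptake, breakdown and export 1 of 11 was called. *Hmox1*, the inducible haem oxygenase that frees iron from haem, was at 3.51, 3.82, 4.22, 3.46 and 3.81 in MO1 to MO5 and between 2.07 and 2.603 in the other mice. Its log2 fold change was 1.40 in MY vs. MO (SE 0.18, FDR 0.00122) and 1.43 in WO vs. MO (SE 0.14, FDR 4.66e-05). *Blvrb*, a biliverdin reductase, passed the FDR alone (0.44 and 0.26). The haem transporter *Slc48a1*, the most abundant of the group, was at -0.26 (FDR 0.0298) and -0.13 (FDR 0.199). Of 10 genes of hepcidin and iron sensing *Hfe*, a partner of the transferrin receptor, was the 1 called, at 3.00 to 3.71 in MO and 2.50 to 2.73 elsewhere. Its log2 fold changes of 0.66 (SE 0.14, FDR 0.0101) and 0.59 (SE 0.11, FDR 0.00291) were not called without MO1 (0.55 and 0.48), the second also not without WO5 (0.56) or after quantile normalization (0.56), and neither by treat (FDR 0.17 and 0.121). *Ireb2*, an iron regulatory protein, and *Fbxl5*, which targets it for degradation and was the most abundant of the group, were lower in MO than in MY by FDR (-0.20 and -0.18, FDR 0.0176 and 0.0376) and at 0.020 and 0.030 in WO vs. MO (FDR 0.799 and 0.722).

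The groups of haem synthesis (10 genes), mitochondrial iron and iron-sulfur assembly (22 genes), ferritin handling and iron chaperones (3 genes) and iron-dependent lipid peroxidation (8 genes) had 0 calls in both comparisons. Their most abundant genes in WO were *Urod* (48.3 ± 4.62 FPKM), *Iscu* (219 ± 12.9), *Pcbp1* (90.8 ± 3.55) and *Gpx4* (432 ± 38.7). All 4 were above an FDR of 0.05 in both comparisons, with *Gpx4* at 0.31 (FDR 0.0559) in MY vs. MO. *Hscb*, a co-chaperone of iron-sulfur transfer, and *Lpcat3*, an acyltransferase of membrane phospholipids, passed the FDR alone in WO vs. MO (0.37 and 0.53, FDR 0.00146 and 2.33e-05) and were called in the interaction, and *Lpcat3* was called in WO vs. MO by treat (FDR 0.00189). *Ncoa4*, the receptor that takes ferritin to the lysosome, was at -0.18 (FDR 0.0806) and -0.13 (FDR 0.118). Without MO5 4 genes of the 75 were called in MY vs. MO and 6 in WO vs. MO, the added one being *Alox5* (chosen after its values were seen), and 7 in the interaction.

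For each of the genes called in both comparisons, the 3 most similar of all genes were sought by the root mean square difference of mean-centred log2(1 + FPKM) over the 16 mice. For *Ftl1* they were *Dnase2a* (0.103 log2 units), *Bcl3* (0.105) and *Dhrs3* (0.107). For *Slc11a1* they were *C3ar1* (0.124), *Ctsz* (0.132) and *C3* (0.135). *Dnase2a* went from a mean of 1.69 in WO to 3.01 in MO, and *Ctsz* from 5.2 to 7.23.

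The 10 genes lie on 8 chromosomes of the mouse build GRCm38 (mm10). *Ftl1* is at chr7:45457944-45459884 on the minus strand, *Fth1* at chr19:9980598-9985098 on the plus strand, *Slc11a1* at chr1:74375195-74386062 on the plus strand and *Cp* at chr3:19957054-20009145 on the plus strand. *Slc40a1* (chr1:45908068-45926523) and *Steap3* (chr1:120190757-120272705) are also on chromosome 1, and *Tfrc* is at chr16:32608920-32632794.

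Since mRNAs of the iron system are known to share a regulatory hairpin, the longest protein-coding transcript of each gene in GENCODE M21 was searched for its letters. This search was added after the data were seen. The pattern was a C, 5 bases, the loop CAGTGN and 5 bases that pair with the first 5, G with T allowed, on the transcript strand. It was found in 271 of 21877 genes (1.24%). Of the 75 other iron genes 2 held it (2.67%), *Alas2* and *Bola3*. Of the 10 genes 4 held it (40.0%), *Fth1*, *Ftl1* and *Slc40a1* with 1 match each in the 5′ UTR and *Tfrc* with 4 matches in the 3′ UTR. The 30 bases around each match are printed so that the hairpins of the ferritin, exporter and receptor mRNAs can be compared, with the loop in capitals.
Fth1: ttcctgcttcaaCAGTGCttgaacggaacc
Ftl1: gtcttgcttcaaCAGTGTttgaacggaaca
Slc40a1: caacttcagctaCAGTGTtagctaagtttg
Tfrc, the first: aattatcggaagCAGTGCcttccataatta
Tfrc, the second: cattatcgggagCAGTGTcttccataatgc
Tfrc, the third: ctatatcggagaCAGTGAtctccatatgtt
Tfrc, the fourth: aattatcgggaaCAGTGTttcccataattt

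The *Fth1* match is at chr19:9982732-9982761 (plus strand), the *Ftl1* match at chr7:45459778-45459807 (minus strand) and the *Slc40a1* match at chr1:45925464-45925493 (minus strand). Those of *Tfrc* are at chr16:32631219-32631248, chr16:32631598-32631627, chr16:32631663-32631692 and chr16:32631710-32631739 (plus strand). Genes with a match did not move alike. *Ftl1* was called higher in WO vs. MO (1.24), *Fth1* and *Tfrc* passed the FDR alone (0.38 and 0.30) and *Slc40a1* was at -0.16 (FDR 0.226). *Slc11a1* and *Cp*, with log2 fold changes of 2.07 and 0.57, and *Slc11a2*, *Trf*, *Steap3* and *Heph* held no match in the transcript searched. This says only that these letters are not in it, and other transcripts of these genes were not searched. RNA levels do not show how the hairpins acted on translation.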

How the data were processed

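Spinal cord RNA of 16 mice was sequenced with the Illumina TruSeq Stranded mRNA kit. Per the submitters' processing notes and the methods of the study, the authors trimmed with Trimmomatic, used TopHat for alignment (mm10) and obtained FPKM per gene from Cufflinks. They removed genes at 0 in many samples, added 1, took log2 and corrected the 2 batches with ComBat. The covariates given to ComBat, the annotation and the versions are not given in the sources used here. All young mice were of batch 1, so how the correction affected differences with age cannot be checked. This concerns MY vs. MO, WY vs. WO and the interaction. The deposited log2 values (18167 genes, 915 values below 0 after the correction) were used as deposited, and FPKM was back-transformed from them. No counts were available for the analysis, so the depth of a gene is unknown.

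Each comparison was fitted on its own 2 groups with limma 3.58.1 (lmFit, eBayes, two-sided) in R 4.3.3 over all genes, second group minus first. The interaction used all 16 mice. The FDR is Benjamini-Hochberg over all genes, at most 0.05, with a fold change of at least 1.5. Ratios were tested with the exact permutation test of SciPy 1.17.1 (Python 3.11.15, NumPy 2.4.6, pandas 2.3.3, matplotlib 3.10.9). No columns were identical, so each mouse counted once. Alternatives were batch 1 only, batch as a term, a mean of at least 1, a pseudocount of 0.1, an intensity trend, quantile normalization, a joint fit of the groups, treat against 1.2, a replicate block and omission of each mouse, and for ratios the deposited scale. Under treat a call needed the FDR alone.

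Named were all 10 genes, every listed iron gene called in any comparison, the most abundant gene in WO of each list, and the 3 genes most like each member called in both end-stage comparisons. Further genes were named after their values were seen, namely *Alas2*, *Alox5*, *Blvrb*, *Bola3*, *Ireb2*, *Ncoa4*, *P2ry12*, *S100b*, *Steap2* and *Ttr*. The members and lists were chosen with earlier results of these data known. Sequences and positions came from GENCODE M21 on GRCm38 and from RefSeq promoters of GRCm38.p6. Protein sequences were not used here.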

Additional observations from a re-analysis of the deposited data

Results flagged for a closer look

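The following results stood apart by a fixed rule and are given as values. In groups of 5 mice, the gap between the most extreme mouse and its nearest neighbour was compared with the range of the group. It was above Dixon's critical value of 0.710 in 4 of 52 groups tested, where chance gives about 1 in 20. *Cybrd1* was lowest in MO4 at a log2(1 + FPKM) of 1.39, with the next MO mouse at 1.68. *Slc39a14* was also lowest in MO4, at 3.75, next to 3.99. *Lcn2* was highest among WO in WO1 at 2.28, next to 1.51, and *Lpcat3* was lowest there at 2.97, next to 3.11. None of the 10 iron storage and transport genes and neither ratio had such a mouse.

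The change with age differed between genotypes, by the test of (MO - MY) - (WO - WY) in limma, for *Ftl1* (1.48, FDR 9.27e-05) and *Slc11a1* (1.97, FDR 0.000125) and for 7 of the other iron genes. These were *Lcn2* (2.18, FDR 0.0168), *Hmox1* (1.58, FDR 0.000264), *Cybrd1* (0.92, FDR 0.000181), *Hscb* (0.68, FDR 0.00257), *Lpcat3* (0.61, FDR 8.29e-05), *Hfe* (0.61, FDR 0.0179) and *Slc39a14* (0.60, FDR 0.000588). All 9 differences were positive, that is, larger in mutant mice, where 845 of all genes were called larger and 175 smaller. With a single mouse left out, the call was lost for *Hfe* (without MO1, MY3, WO5 or WY1), *Slc39a14* (MO3, MY2, WO5 or WY2), *Lpcat3* (MY1, WO1 or WY3), *Hscb* (MY1) and *Lcn2* (WY1, FDR 0.0502). In these fits the difference was 0.50 to 0.58 for *Hfe* and 0.57 to 0.58 for *Slc39a14* and *Lpcat3*. It was 0.58 for *Hscb* and 1.995 for *Lcn2*. All but *Lcn2* were then below the fold change threshold of 0.585. The call was also lost for *Hfe*, *Hscb* and *Lcn2* by treat and for *Hfe* after quantile normalization.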

How the results depend on the processing

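The number of the 10 genes called stayed within 1 of its value under each alternative run. It was 2 to 3 in MY vs. MO, 2 to 3 in WO vs. MO, 2 to 3 in the interaction, and 0 in WY vs. WO and WY vs. MY. With the replicate block it was 3, 2, 2, 0 and 0 in that order. The block changed no call of the 10 genes. Same-numbered mice had correlated deviations of -0.207 to 0.377, and in MY vs. MO each mouse correlated best with its own number (0.0853 to 0.177), which did not hold for every mouse in the other comparisons. Without a label for the number, and with a pair under 0.1 in each comparison, mice were not treated as pairs. *Fth1* in WO vs. MO reversed to -0.11 after quantile normalization, which fixes the value at each rank. In 40 of 890 alternatives of the 10 genes the sign changed, this one of *Fth1* included. In the others of these neither value passed the FDR. Of the 890 alternatives 6 gained a call and 1 lost it. For the 14 other iron genes followed singly (those called in any comparison and the most abundant of each list), 7 of 1246 alternatives gained a call and 29 lost it. Over all alternatives the count of the 75 other iron genes called was 3 to 8 in MY vs. MO, 3 to 8 in WO vs. MO and 4 to 10 in the interaction. It moved in MY vs. MO to 7 with batch 1 only, 8 with a pseudocount of 0.1 and 7 with the block, in WO vs. MO to 8 with that pseudocount and 3 without WO5, and in the interaction to 4 by treat.

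The ratios kept their direction in MY vs. MO and WO vs. MO, with an exact p above 0.05 where few mice remained. For *Fth1* to *Ftl1* in MY vs. MO the difference was -0.82 with batch 1 only (exact permutation test, p = 0.1), -0.82 with the replicate block (exact sign-flip test, p = 0.25), and -1.001 to -0.78 with a mouse left out (exact p of 0.0571 to 0.0952). In WO vs. MO it was -0.76 with batch 1 only (exact permutation test, p = 0.1), -0.86 with the block (exact sign-flip test, p = 0.0625), and -0.98 to -0.76 with a mouse left out (exact p = 0.0159). For *Tfrc* to *Fth1* in MY vs. MO it was -0.75 with batch 1 only (exact permutation test, p = 0.1), -0.75 with the block (exact sign-flip test, p = 0.25), and -0.71 to -0.54 with a mouse left out. Those designs allow no smaller p. In WY vs. MY this ratio went from -0.21 to 0.18 over the alternatives, so its direction was not fixed.

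After quantile normalization the median log2 fold change of all genes was -0.03 in both MY vs. MO and WO vs. MO. Groups held 3 to 5 mice, and only batch-corrected values without counts were available.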

Other observations

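Promoters of 6 of the 10 genes (12 promoters of 300 bases) were matched in RefSeq, for *Fth1*, *Ftl1*, *Tfrc*, *Cp*, *Slc11a1* and *Steap3*. On both strands GAGGAA was found in 3 of the 12, those of *Slc11a1* and *Steap3*, and in 28.3% of 32851 promoters of that length. TGACNNNGC, TGAGTCA and TTCNNNGAA were found in 0 of the 12 and in 12.4%, 5.2% and 8.3% of all. A match describes the letters, not a site in use.

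In MO1 the red blood cell markers summed to 14.8 FPKM, the lowest of the 16 mice, and *Trf* (9.07) was also lowest there, while *Heph* (3.09), *Cp* (3.34), *Fth1* (13.57) and *Lcn2* (5.17) were highest. In MO3 *Ftl1* (9.74), *Slc11a1* (3.65), *Hmox1* (4.22), *Steap3* (1.99) and the microglial sum (978 FPKM) were highest of all mice. These mice and the motifs were picked after the values were seen.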
